A study of Mus musculus with 10 samples.

Results

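The genes described here are 35 lysosomal genes, taken by symbol from a list, out of 53379 genes counted in each of 10 RNA-seq libraries of sorted mouse hippocampal cells. The list holds the sialidase Neu1 and 34 other genes for lysosomal enzymes, their cofactors and proteins of the lysosomal membrane, and all 35 were found and passed the filter on low counts, which kept 19754 genes. Neu1 led to the list because its level was very low in one group of these libraries, and the question was whether other lysosomal genes followed it. Neu1 is therefore described without a test wherever that group or the group it was compared with takes part. Male mice, 5 weeks old, received the viruses AAV9-c-Fos-tTA and, with it, AAV9-TRE-ChR2-EYFP, so that the c-Fos promoter drives EYFP in active cells once doxycycline (Dox) is withdrawn, and the sort took EYFP cells of any type in which the promoter was active. The aversive group (n = 2 libraries) received 4 foot shocks of 2 s and 1.5 mA. The appetitive group (n = 2) was exposed to a female for 1 h by the labels, while the neutral group (n = 3) was kept in the conditioning cage without either stimulus. The mock group (n = 3) is given as home cage mice. The labels state that 8 mice were pooled for each condition. The paper's Methods differ in part, with a longer exposure to the female and with a mock group that is an untagged control from fewer mice, so it is not certain that the mock libraries hold tagged cells. Whether the replicate libraries were made from different pools is not stated, so p-values measure only the spread between these libraries, which may be technical.

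Lysosomes are acidic organelles in which hydrolases break down proteins, glycans and lipids that arrive by endocytosis or autophagy. The enzymes work in sequence: a glycan chain is removed sugar by sugar and sulfate by sulfate, so that the loss of any of them leaves an undigested remainder, and many of the genes below are known from inherited storage diseases of the brain. NEU1 removes terminal sialic acid and needs cathepsin A (CTSA) as a partner, in a complex that also holds the beta-galactosidase GLB1. Transcription factors of the MiT/TFE family, such as TFEB, are known to drive many lysosomal genes through an E-box motif with the core CACGTG.

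Total counts ranged from 16968588 to 67650693 per library, and 3 counts, taken as the smallest level that can be shown, corresponded to 0.0346 to 0.235 CPM (counts scaled to a common normalised library size). This floor covers counting error only. Mbp, a myelin gene, alone took 30.8% of all counts in appetitive 1, and markers of other cell types differed widely between libraries. The summed level of 8 oligodendrocyte markers was 7475 to 803800 CPM, where the highest value, in appetitive 1, is raised over the raw share by a TMM factor of 0.48, and that of 10 neuron markers was 78.2 to 1244 CPM. Appetitive 1 had the highest neuron sum, most of it from Snap25 and Nrgn (577 and 515 CPM). In that library Camk2a, Tubb3 and Stmn2 had 106, 28.6 and 14.9 CPM. Rbfox3, Slc17a7 and Syt1 had 1.17, 0.704 and 0.547 CPM, and Grin1 and Gad1 had no count. The sum of 6 markers of choroid plexus and ependyma was 21150 to 129900 CPM in neutral, 7193 to 13510 CPM in aversive, 1119 to 3454 CPM in mock and 848 to 2981 CPM in appetitive libraries, and 2 of the 6, Ttr and Folr1, were called lower in appetitive against neutral libraries. The part of these markers in the results below was not tested. In such bulk libraries fewer cells of a type and less RNA per cell cannot be told apart. The neutral libraries were made and sequenced apart from all others, with another kit name and 100 bp instead of 40 bp reads, and are labelled total RNA instead of polyA RNA, so that the neutral condition and this batch cannot be told apart. The libraries of the other groups share the read length, but whether replicates within a group were made in different batches is not known here. The paper's reporting summary says that the RNA-seq was replicated and that batch effects were accounted for.

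Neu1 (chr17:34931253-34935953, plus strand, no exon shared with another gene) had 2 counts in appetitive 1 and 5 in appetitive 2. On the CPM scale this was 0.156 and 0.262. The aversive libraries held 129 and 62.2 CPM, the mock libraries 27.5, 26.1 and 46.1 CPM, and the neutral libraries 47.8, 32.2 and 50.3 CPM. Both appetitive libraries thus lay far below the other 8, and both aversive libraries above all mock and neutral ones. The mean level was 457 times lower in appetitive than in aversive libraries. A 95% counting interval of 211 to 1083 came from the 7 appetitive counts alone and leaves out the spread between libraries. Against neutral libraries the ratio was 208 and against mock libraries 159. The comparison that the choice of the gene leaves free is neutral with mock, and there Neu1 did not differ beyond the spread (log2 fold change 0.39 ± 0.75 SE, edgeR adjusted p = 0.926).

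Promoter sequence was available for 31 of the 35 members, as 34 windows of 300 bases (250 before to 50 after the start, RefSeq, GRCm38.p6). Ctsb, Npc1, Asah1 and Galns had no entry. The E-box CACGTG, which is its own reverse complement, was present in the windows of 11 members, 35.5% of the 31, and in 8.09% of all 27025 genes with a window. The longer form TCACGTGA, which contains the E-box, was found in Ctsa, Ctsd, Mcoln1 and Cln3, 12.9% of members against 1.12% of genes. The windows of Neu1 and of Man2b1, a mannosidase described below with it, held no CACGTG, while that of Naglu, the other gene with the same pattern, held 1. Searched on both strands as well were GGGCGG, in 67.7% of members and 38.2% of all genes, CCAAT, in 35.5% and 41.1%, and TGANTCA, in 9.68% and 8.97%. The 120 bases before the start of Neu1 (chr17:34931133-34931252, plus strand) and of Man2b1 (chr8:85083149-85083268, plus strand) are shown because these genes share a pattern of expression, with complete matches to any of these motifs in capitals. They are followed by 26-base stretches around an E-box, in capitals, of Naglu (chr11:101070011-101070036, in exon 1 by GENCODE), Ctsa (chr2:164833751-164833776), Glb1 (chr9:114401020-114401045) and Mcoln1 (chr8:3500464-3500489), all on the plus strand. In Neu1 the match is CCGCCC, the reverse complement of GGGCGG, and in Man2b1 it is ATTGG, that of CCAAT.
Neu1: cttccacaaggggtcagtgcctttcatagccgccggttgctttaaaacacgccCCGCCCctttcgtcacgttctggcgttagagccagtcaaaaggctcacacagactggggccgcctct
Man2b1: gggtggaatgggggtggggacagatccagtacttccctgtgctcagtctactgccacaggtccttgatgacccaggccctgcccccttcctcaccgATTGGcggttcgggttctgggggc
Naglu: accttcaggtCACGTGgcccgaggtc
Ctsa: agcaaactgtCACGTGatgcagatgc
Glb1: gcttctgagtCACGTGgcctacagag
Mcoln1: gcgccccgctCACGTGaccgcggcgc

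**Figure D1:**
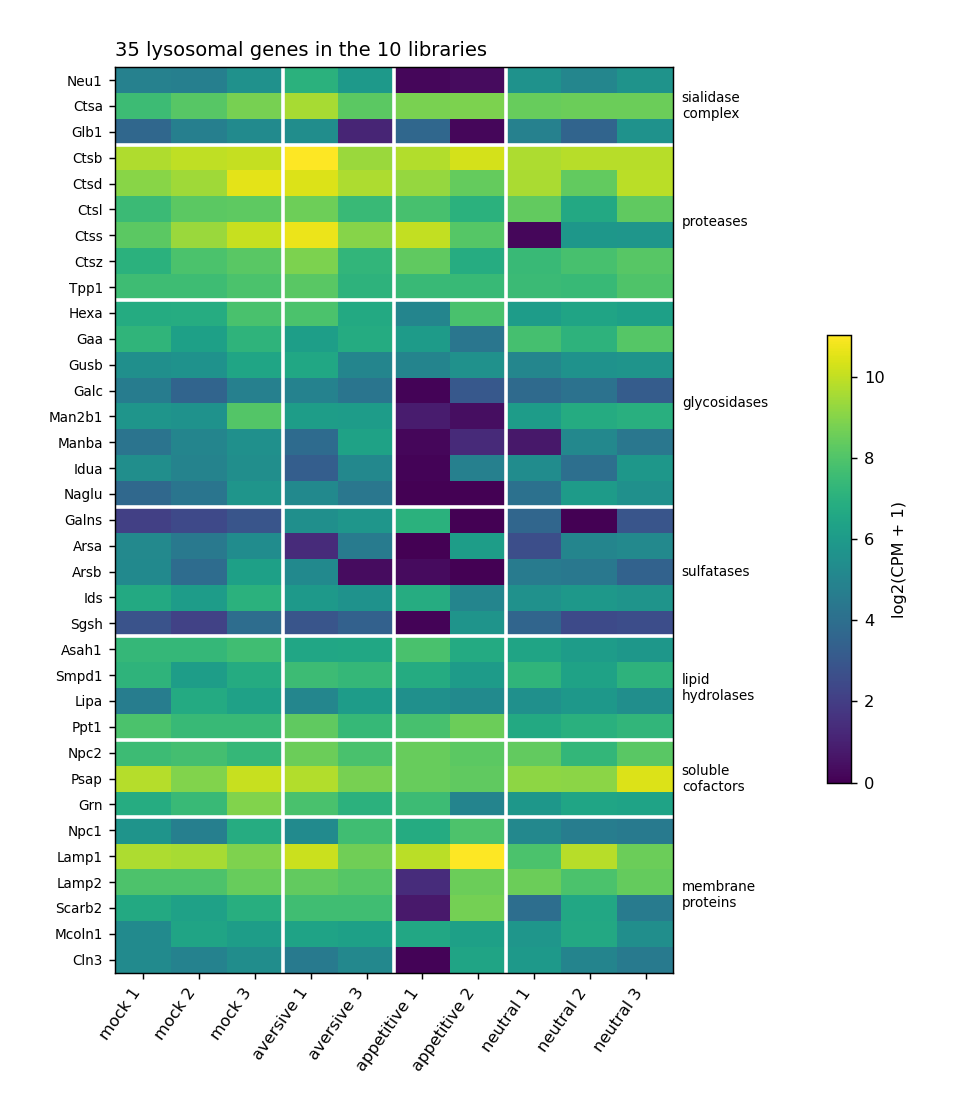
Level of the 35 members, as log2(CPM + 1), by role (rows) in each of the 10 libraries (columns). Dark cells gather in the appetitive columns among the glycosidases and sulfatases, while proteases, lipid hydrolases and cofactors keep a similar level in most libraries, with Ctss in neutral 1 as a dark exception.

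The partners of NEU1 did not share its pattern. Ctsa (chr2:164832873-164841032) had 450 and 464 CPM in the appetitive libraries, beside 767 and 300 CPM in the aversive, 189, 282 and 428 CPM in the mock and 348, 378 and 378 CPM in the neutral libraries. The appetitive values lie inside the aversive range, and the fold change between these groups was -0.22 ± 0.66 (log2, edgeR adjusted p = 0.958). Exons of Ctsa overlap those of Pltp and Neurl2 on the other strand, and counting ignored strand, so these reads cannot be told apart. Glb1 (chr9:114401076-114474898) had 11.7 CPM in appetitive 1 and 0.157 CPM in appetitive 2, but also 41.0 and 1.18 CPM in the aversive libraries. It had 11.8, 26.4 and 38.2 CPM in mock and 28.1, 10.7 and 48.3 CPM in neutral libraries. The aversive and appetitive ranges of Glb1 overlap, with 1 low library in each. Exons of Glb1 overlap those of Tmppe on the same strand.

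Naglu and Man2b1, a pair of glycosidases, were the members closest to Neu1. Likeness was taken as the root mean square difference of centred log2(CPM + 1) values from those of Neu1 over the 10 libraries. It was 0.84 for Naglu, 0.89 for Man2b1 and, next, 1.40 for Galc. This measure includes the appetitive and aversive libraries on which Neu1 was chosen, so the order is a description and no independent support. Naglu (chr11:101070012-101077672), which cleaves N-acetylglucosamine from heparan sulfate, had no count in either appetitive library. It had 36.1 and 20.0 CPM in the aversive, 12.3, 18.4 and 52.7 CPM in the mock and 16.5, 64.7 and 44.8 CPM in the neutral libraries. Set against the higher of the floors of 3 counts in the appetitive libraries, that of appetitive 1, its mean was at least 119-fold lower in appetitive than in aversive libraries. The bound was 179-fold against neutral and 118.5-fold against mock libraries. Man2b1 (chr8:85083270-85098282), the lysosomal alpha-mannosidase, had 10 and 6 counts in the appetitive libraries, or 0.782 and 0.314 CPM. Its levels elsewhere were 69.6 and 66.9 CPM in aversive, 52.2, 47.8 and 267 CPM in mock and 67.8, 108 and 122 CPM in neutral libraries. For both genes the appetitive libraries lay below all 8 others with no overlap, and neither gene shares exons with another.

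Both were called lower in the 3 comparisons of appetitive libraries. Man2b1 fell by 6.97 ± 1.28 (log2, SE) against aversive libraries (edgeR adjusted p = 0.0303), by 7.51 ± 1.29 against neutral (edgeR adjusted p = 0.0173) and by 7.81 ± 1.31 against mock libraries (edgeR adjusted p = 0.0317). Adjusted p-values of Naglu in the same order were 0.0287, 0.0173 and 0.0317 (edgeR). These 3 comparisons share the same pair of appetitive libraries and are not independent. All these calls sit close to the threshold. Against aversive and against mock libraries, both genes lost the call when any mock library or any neutral library was left out. Their edgeR adjusted p was then between 0.0523 and 0.0937. In these fits only 0.0% to 0.446% of all genes were called, so the loss was not particular to this pair. Against neutral libraries both genes lost the call without neutral 3 (edgeR adjusted p = 0.0566 for both), where 0.358% of all genes were called. Without appetitive 2, leaving 1 appetitive library that is assumed to vary like the rest, 7 of the 34 members other than Neu1 were called against aversive, 8 against neutral and 7 against mock libraries, beside 6.16%, 9.31% and 6.01% of the 23716 genes in that fit. With the 2 groups compared alone, neither gene was called against aversive (edgeR adjusted p = 0.711) or neutral libraries (edgeR adjusted p = 0.0951). In both of these fits 0.0% of all genes were called. Against mock libraries alone, 3 of the 34 members were called, beside 21.8% of 16471 genes.

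**Figure D2:**
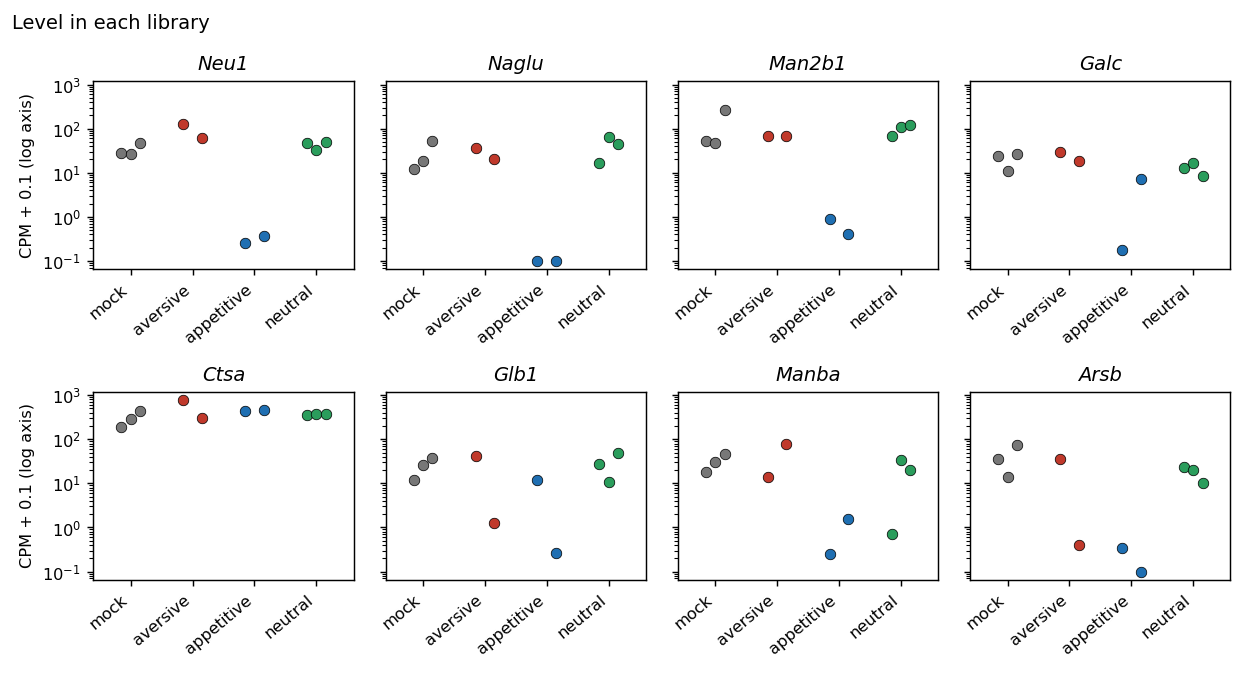
Level (CPM plus an offset of 0.1, log axis) of Neu1, the 3 members nearest to it, its partners Ctsa and Glb1, and Manba and Arsb, with 1 point per library. Neu1, Naglu and Man2b1 drop below 1 CPM in both appetitive libraries alone, Ctsa stays between 189 and 767 CPM, and Glb1, Manba and Arsb also have a low library in another group.

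Galc, galactosylceramidase, which acts on the main galactolipid of myelin, was the third gene in likeness and differed between the appetitive libraries themselves. It had 0.0782 CPM (1 count) in appetitive 1 and 7.12 CPM in appetitive 2. Its level was 28.7 and 18.3 CPM in aversive, 23.7, 10.9 and 26.6 CPM in mock and 13.0, 16.7 and 8.25 CPM in neutral libraries. The appetitive libraries were the lowest of the 10, but the fold change against aversive libraries, -2.70 ± 1.65 (log2), was not called (edgeR adjusted p = 0.396).

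Among the other glycosidases, Manba, the beta-mannosidase, had 0.156 and 1.47 CPM in the appetitive libraries. It was at 13.6 and 80.1 CPM in aversive, 17.8, 31.0 and 45.2 CPM in mock and 0.615, 34.2 and 19.7 CPM in neutral libraries. Its appetitive values lay below those of aversive and mock but not of neutral 1, and its fold change against aversive libraries was -5.83 ± 2.01 (log2, edgeR adjusted p = 0.160). Idua, the iduronidase of heparan and dermatan sulfate, had 0.0782 and 26.9 CPM in the appetitive libraries, and 8.81 to 56.0 CPM in the others. Gaa, the glucosidase of lysosomal glycogen, had 65.5 and 18.9 CPM in the appetitive and 214, 140 and 275 CPM in the neutral libraries, and its fold change between them was -2.31 ± 0.80 (log2, edgeR adjusted p = 0.0925). Hexa, the alpha subunit of beta-hexosaminidase, ranged from 31.3 CPM in appetitive 1 to 238 CPM in aversive 1, and Gusb, the beta-glucuronidase, from 30.3 to 92.6 CPM. As a sum over all 8 glycosidases, the appetitive libraries held 128 and 336 CPM and the other 8 libraries 374 to 897 CPM. The sum mostly reflects the more abundant genes.

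The sulfatases, which remove sulfate from glycosaminoglycans and sulfatides, were the least even group. Arsb had 3 counts in appetitive 1 and none in appetitive 2. In CPM it stood at 36.3 and 0.301 in aversive, at 36.2, 14.1 and 75.8 in mock and at 23.1, 20.5 and 9.89 in neutral libraries. Aversive 3 was thus near the appetitive level, and the call was missed (edgeR adjusted p = 0.149 against aversive libraries). Galns was highest of all in appetitive 1, with 131 CPM, and had no count in appetitive 2 nor in neutral 2. Arsa showed the reverse, with no count in appetitive 1 and 69.0 CPM in appetitive 2, and Sgsh likewise, with 0.0782 and 50.6 CPM. Elsewhere Sgsh was low, at 6.01, 3.49 and 14.1 CPM in mock, 6.51 and 9.70 CPM in aversive and 11.0, 4.54 and 5.10 CPM in neutral libraries. Ids was steadier, from 31.3 to 132 CPM. Across the 34 members other than Neu1, the lowest and the highest of the 10 libraries were the 2 appetitive libraries for 4 genes, Arsa, Sgsh, Scarb2 and Cln3, and the same was true of 7.07% of all tested genes.

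In appetitive 1, 10 of the 34 other members were under 1 CPM, and in appetitive 2 there were 5. The lists shared Man2b1, Naglu and Arsb, which is 30.0% of the first and 60.0% of the second. No mock library had such a member, neutral 1 had 2 (Ctss and Manba), and aversive 3 and neutral 2 had 1 each. Low levels were common in these libraries, where 64.5% of all tested genes were under 1 CPM in appetitive 1 and 56.7% in appetitive 2, beside 27.5% to 49.7% in the other libraries. Under 1 CPM in both appetitive libraries were 3 of 34 members and 47.6% of all tested genes. Under 1 CPM in both and at 1 CPM or more in all 8 other libraries, as for Neu1, were 2 members, Man2b1 and Naglu, beside 3.77% of all tested genes. Members are abundant genes, and 19 of the 34 had a mean of at least 100 CPM over the 8 other libraries. In that class, 1 member, Man2b1, and 2.52% of 1387 tested genes were under 1 CPM in both appetitive libraries. Man2b1 had 267 CPM in mock 3 and 47.8 to 122 CPM in the rest of these 8 libraries, so its place in this class rests on mock 3. In the class from 10 to 100 CPM it was 2 of 14 members and 21.5% of 8326 tested genes. These classes were chosen after the values were seen. Low levels occurred with and without an E-box: of 11 members with the motif 5, and of 19 others without it 6, were under 1 CPM in an appetitive library.

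**Figure D3:**
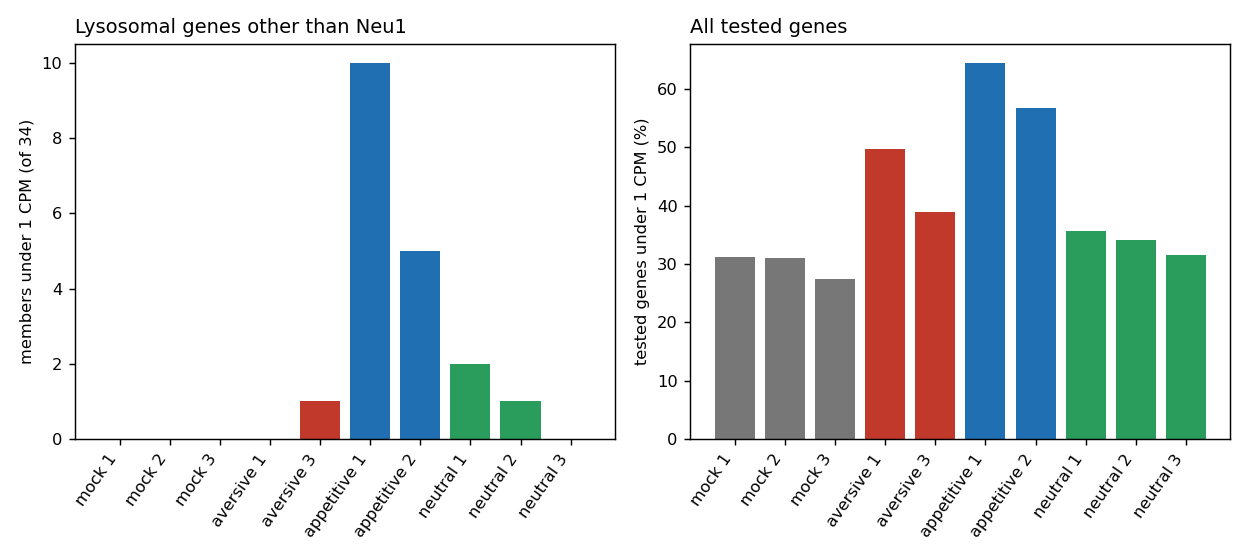
Number of the 34 members other than Neu1 under 1 CPM (left) and percent of all tested genes under 1 CPM (right) in each library. The appetitive bars are the tallest in both panels, at 10 and 5 members and at 64.5% and 56.7% of genes.

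The proteases were abundant in most libraries, and they hold both the steadiest and the least steady member. Per kilobase of exon, the highest mean levels among all members were 416 CPM per kb for Ctss, 340 for Ctsd and 303 for Lamp1, and the lowest were 1.03 for Galc, 2.52 for Sgsh and 3.50 for Manba. Neu1, at 11.3 CPM per kb, was 20th of 35. Ctsd, the main aspartic protease, had 627 and 341 CPM in the appetitive libraries. Its aversive levels were 1390 and 811 CPM, its mock levels 528, 694 and 1536 CPM, and its neutral levels 799, 327 and 930 CPM. The appetitive libraries were under the aversive ones but within the range of mock and neutral. Ctsb, an abundant cysteine protease, ranged from 660 to 2079 CPM, Ctsl from 101 to 380 CPM and Ctsz from 111 to 466 CPM. Tpp1, the tripeptidyl peptidase, was the steadiest of the 35, between 140 and 292 CPM (SD of log2(CPM + 1) over the 10 libraries 0.31).

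Ctss, a cathepsin typical of microglia and other antigen-presenting cells, was low in the neutral libraries and had the widest spread of all members (SD of log2(CPM + 1) 3.13). It had 0.158, 56.1 and 54.9 CPM there, against 300, 666 and 1093 CPM in mock, 1645 and 524 CPM in aversive and 1033 and 280 CPM in appetitive libraries. The neutral libraries were below all 7 others. The differences were not called in the comparisons of neutral with mock (-4.21 ± 1.44, edgeR adjusted p = 0.221), of aversive with neutral (4.87 ± 1.54, edgeR adjusted p = 0.169) or of appetitive with neutral (4.15 ± 1.50, edgeR adjusted p = 0.103), all on the log2 scale. The sum of 10 microglia markers moved alongside, with 19.7 to 394 CPM in neutral, 1379 to 8870 CPM in mock, 2177 to 6943 CPM in aversive and 968 to 3866 CPM in appetitive libraries. None of these markers was at 0 in all neutral libraries. The low sum was not particular to microglia. Neutral libraries held 439 to 462 CPM of 8 astrocyte markers in sum, where no other library had less than 3177 CPM. For the 10 neuron markers the sum was 78.2 to 87.0 CPM, beside at least 187.6 CPM in the others. Called lower by edgeR in neutral against mock libraries were 3 astrocyte and 0 microglia markers. Oligodendrocyte and endothelial sums overlapped other groups, and that of choroid plexus and ependyma was higher. The part of any of these markers in the level of Ctss was not tested.

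**Figure D4:**
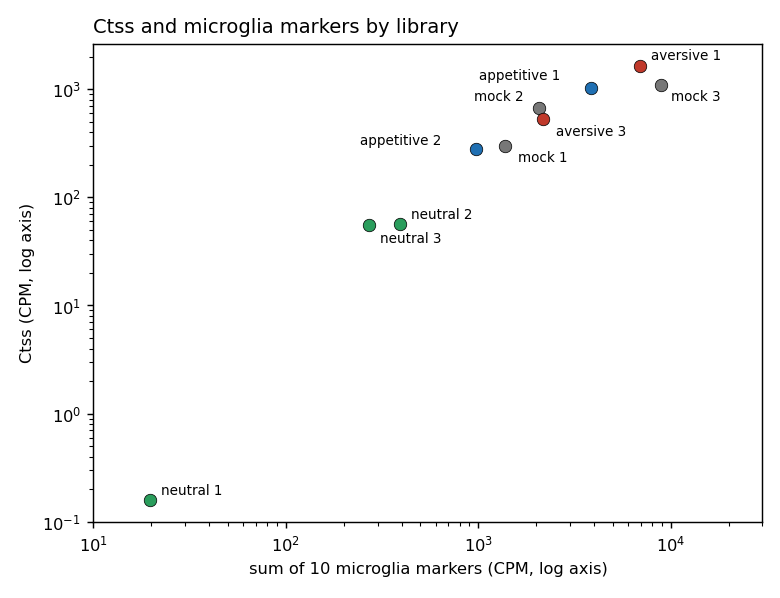
Level of Ctss (vertical, CPM, log axis) against the sum of 10 microglia markers (horizontal, CPM, log axis), 1 point per library, coloured by group. The 3 neutral libraries form the lower left, with neutral 1 at 0.158 CPM of Ctss and 19.7 CPM of markers.

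The lipid hydrolases and soluble cofactors stayed in every library above 24 CPM. Asah1, the acid ceramidase, had 84.6, 67.7 and 55.5 CPM in neutral and 159, 163 and 197 CPM in mock libraries. These groups did not overlap, yet the fold change of -1.32 ± 0.57 (log2) was not called (edgeR adjusted p = 0.336). Both aversive libraries (90.2 and 94.9 CPM) were below both appetitive ones (233 and 107 CPM), an order seen for 1 of the 34 members and for 8.34% of all tested genes. The acid sphingomyelinase Smpd1 ranged from 65.4 to 189 CPM, the acid lipase Lipa from 24.5 to 107 CPM and the palmitoyl thioesterase Ppt1 from 103 to 371 CPM. Psap, the precursor of the saposins that present sphingolipids to their hydrolases, had 355 and 324 CPM in the appetitive and 872 and 435 CPM in the aversive libraries, with 483 to 1392 CPM in the rest. The cholesterol carrier Npc2 varied little, from 154 to 376 CPM. Grn, the progranulin gene, had 56.8, 87.9 and 82.9 CPM in neutral and 111, 179 and 487 CPM in mock libraries, a fold change of -1.77 ± 0.80 (log2) that was not called (edgeR adjusted p = 0.369).

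The membrane proteins, like the sulfatases, held wide disagreements between the appetitive libraries. Lamp2, a major glycoprotein of the lysosomal membrane, had 1.64 CPM in appetitive 1 and 367 CPM in appetitive 2, while the other 8 libraries held 238 to 376 CPM. Scarb2, the receptor that carries beta-glucocerebrosidase to lysosomes, had 0.704 and 421 CPM in the appetitive libraries and 14.6 to 198 CPM in the others. Cln3, mutated in juvenile Batten disease, had 0.0782 and 84.9 CPM, beside 21.7 to 59.0 CPM elsewhere. Lamp1, the paralog of Lamp2, was by contrast high in both, at 954 and 2073 CPM. It had 235, 917 and 368 CPM in neutral, 816, 754 and 469 CPM in mock and 1118 and 393 CPM in aversive libraries, and its fold change of 1.58 ± 0.71 against neutral libraries (log2) did not pass the threshold (edgeR adjusted p = 0.168). Npc1, the membrane protein that exports cholesterol, had 108 and 245 CPM in the appetitive and 37.7 and 196 CPM in the aversive libraries. Its neutral level was 34.1, 24.4 and 22.2 CPM and its mock level 50.4, 26.2 and 114 CPM. The appetitive libraries were above all neutral ones, with a fold change of 2.71 ± 0.91 (log2, edgeR adjusted p = 0.0858). The calcium channel gene Mcoln1 was even, from 37.6 to 98.4 CPM.

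Over the 34 members other than Neu1, the count called was the same pair, Naglu and Man2b1, in each comparison that uses appetitive libraries, and 0 in the rest. Against aversive libraries 2 were called, both lower, where 1.8% of all 19754 tested genes were called, 23 higher and 333 lower in appetitive libraries. As the gene that led to the list was picked on this contrast, nothing is read from that count. Against neutral libraries it was 2 of 34, or 5.88%, beside 6.17% of all tested genes, which is close to the background. Against mock libraries the same 2 genes stood beside 1.98% of all tested genes. In aversive against neutral libraries 0 members were called by edgeR, beside 0.0405% of all genes, in aversive against mock 0 beside 0.0%, and in neutral against mock 0 beside 0.0861%. DESeq2 called 1, 0 and 1 there, beside 10.0%, 4.38% and 4.72% of the genes it fitted.

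At an unadjusted p under 0.05 the share of members was below that of all tested genes in each comparison. In appetitive against aversive libraries 4 members passed (Naglu, Man2b1, Manba and Arsb, all lower), 11.8% of the 34 beside 20.0% of tested genes. In appetitive against neutral there were 8, 3 of them higher (Npc1, Lamp1 and Ctss), or 23.5% beside 29.3%, and in appetitive against mock 4, or 11.8% beside 23.8%. In the other comparisons it was 2 members or 5.88% beside 19.1% (aversive against neutral), 0 members beside 9.96% (aversive against mock) and 3 members or 8.82% beside 13.5% (neutral against mock). Both appetitive libraries lay below both aversive ones for 9 of the 34 members (Ctsd, Gaa, Galc, Man2b1, Manba, Naglu, Arsb, Smpd1 and Psap), which was so for 20.1% of all tested genes. These values of the rule's own contrast are a description.

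The median member moved little. The median log2 fold change of the 34 was -0.44 in appetitive against aversive libraries, where that of all tested genes was -0.48. It was 0.07 against a median of -0.91 in appetitive against neutral, -0.27 against -1.45 in appetitive against mock, 0.35 against -0.15 in aversive against neutral, 0.09 against -0.13 in aversive against mock and -0.25 against 0.08 in neutral against mock libraries. With members at 3 counts or fewer in a group set to their bound, the medians were the same. Another scaling moved members and all genes together: with library size alone, the medians in appetitive against neutral libraries were -0.61 for members and -1.45 for all genes. Single libraries moved the medians too. Without aversive 1 the members' median was 0.13 in appetitive against aversive, -0.08 in aversive against neutral and -0.40 in aversive against mock libraries. Without aversive 3 the first was -0.81 and the last 0.43, and without mock 3 the last was 0.41. Without appetitive 1 it was -0.42 against neutral and -0.92 against mock libraries, and without appetitive 2 it was -0.25 and -0.75, and -0.81 against aversive libraries. The median SD of log2(CPM + 1) over the 10 libraries was 1.00 for the 34 members and 1.29 for all tested genes.

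**Figure D5:**
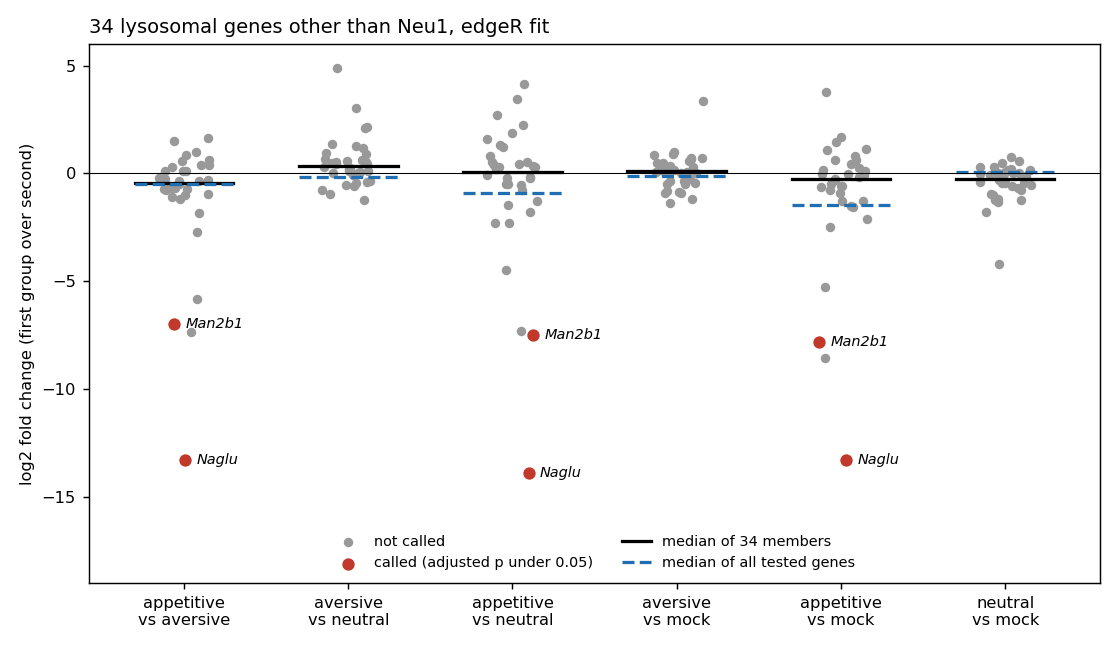
Fitted log2 fold change (first group over second) of the 34 members other than Neu1 in each of the 6 comparisons, with the members' median (black line) and that of all tested genes (dashed blue line). Red points are called: Man2b1 and Naglu in the 3 appetitive comparisons, where the fitted value of Naglu rests on libraries without a count and is no estimate of size.

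Further lysosomal genes were taken from lists written with these results known. Their calls stand beside the share of all tested genes called, 6.17% in appetitive against neutral, 1.8% in appetitive against aversive and 1.98% in appetitive against mock libraries. None of 18 subunits of the vacuolar ATPase, the pump that acidifies lysosomes, was called by edgeR in any comparison, and at an unadjusted p under 0.05 from 0 to 6 passed, with 6 of 18 in neutral against mock libraries, where 13.5% of all tested genes did. The other sialidases were at most 20.6 CPM and none of the 3 was called. Neu3 and Neu4 had 1 count each in appetitive 1 and none in appetitive 2, and Neu2 none in either, but the aversive libraries held as little of Neu4, with 1 and 4 counts. In the list of 24 other hydrolases, Plbd2 and Hyal1 were called lower in appetitive against neutral libraries (edgeR adjusted p = 0.0364 and 0.0407). Plbd2 had 1.1 and 4.61 CPM in the appetitive and 38.4 and 126 CPM in the aversive libraries. Hyal1 had no count in either appetitive library, but only 0.05 CPM in aversive 1, beside 16.5 CPM in aversive 3. Among 16 other membrane proteins, Cd68, a membrane glycoprotein of phagocytes, was called higher in appetitive against neutral libraries (4.13 ± 1.02, log2, edgeR adjusted p = 0.0408). Microglia express Cd68 strongly, and the 10 microglia markers had a median log2 fold change of 3.51 in this comparison, with 1 of them, Tyrobp, called. Some lists of other cell types rose as well. The 8 astrocyte markers had a median of 3.78, with 3 called higher. The 8 oligodendrocyte markers had a median of 2.78, with 0 called. The 10 neuron markers went both ways, with a median of 0.56 and 2 called higher. Medians of endothelial markers and of choroid plexus and ependyma markers were negative, at -1.98 and -4.60. The part of any of these markers in the call of Cd68 was not tested.

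In the list of 14 sorting and maturation genes, Ap1b1, a subunit of the clathrin adaptor AP-1, was called lower in appetitive libraries against aversive (edgeR adjusted p = 0.0484), neutral (edgeR adjusted p = 0.0239) and mock libraries (edgeR adjusted p = 0.0364). It had 0.547 and 0.157 CPM in the appetitive libraries, and 14.8 to 117 CPM in the aversive and mock ones. The sorting adaptor gene Gga2 was called lower against neutral libraries alone (edgeR adjusted p = 0.0356), with 0.469 and 0.0524 CPM in the appetitive but only 0.701 and 0.361 CPM in the aversive libraries. In the list of MiT/TFE factors and nutrient sensing, with 17 of 18 genes tested, Rragd and Flcn, both regulators of mTORC1 at the lysosome, were called lower in appetitive against neutral libraries (edgeR adjusted p = 0.0366 and 0.0428). Rragd had no count in either appetitive library, but only 0.6 CPM in aversive 1, beside 31.9 CPM in aversive 3. Flcn was about as low in the aversive libraries, at 28.7 and 15.8 CPM, as in the appetitive ones, at 9.78 and 39.9 CPM. Its neutral level of 590, 157 and 297 CPM was above its mock level of 50.4, 59.2 and 87.7 CPM. Tfeb itself was not called in any comparison.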

How the data were processed

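RNA-seq measured FACS-isolated EYFP cells from dissected hippocampus in 10 libraries of 4 groups, which held 16968588 to 67650693 counts. From the first 40 bp of each read, mapped by STAR to mm10, the authors obtained counts for Ensembl genes with featureCounts (Subread, unstranded) and deposited them raw. Tool versions are not given in the sources used here. Groups came from the sample labels.

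Identifiers were matched to GENCODE M21 (GRCm38), which held 53274 of 53379. Counts were fitted in R 4.3.3 with edgeR 4.0.16 (TMM, filterByExpr, 1 quasi-likelihood model of 4 groups over 10 libraries, common dispersion 1.49). Two-sided p-values were adjusted over the 19754 genes tested by the Benjamini-Hochberg method and called under 0.05. Standard errors were derived from F statistics. Alternatives were DESeq2 1.42.0, other scalings, no filter, the groups compared alone, a replicate block and leaving out each library. Added after seeing the data were other limits and scalings for the count of members near 0. Tables and figures used Python 3.11.15, pandas 2.3.3, numpy 2.4.6 and matplotlib.

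In the further lists, 1 gene is not reported here. The members, lists and tests were chosen with earlier results of these data known. Values in every library are given for Neu1, called members, the 3 highest and 3 lowest per length and the 3 nearest to Neu1. Members with values in every library beyond these, and Neu2 to Neu4, Tfeb, Tyrobp, Ttr, Folr1 and the neuron markers given by name, were named after their values were seen.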

Additional observations from a re-analysis of the deposited data

Results flagged for a closer look

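For 2 members other than Neu1, the appetitive and aversive groups differed by the direct test of that contrast. These were Naglu (edgeR adjusted p = 0.0287, lower in 2 of 2 appetitive libraries) and Man2b1 (edgeR adjusted p = 0.0303, lower in 2 of 2). Neu1 was chosen on the same contrast, so neither adds independent support. Galc lay on opposite sides of all 3 neutral libraries, higher in both aversive and lower in both appetitive libraries, with a difference of means of 19.9 CPM. This opposition was seen in the values and was not tested as such, and the direct contrast of the groups did not pass (edgeR adjusted p = 0.396). No group had the 4 libraries that a check for a single outlying library needs.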

How the results depend on the processing

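The fitted CV between replicates was 122%, and the counts of called members depended on the processing. The count of 2 in each appetitive comparison was 0 with a replicate block. The share of all genes was then 0.0% against aversive, 0.37% against neutral and 0.0% against mock libraries. With the 2 groups compared alone, 0 members were called against aversive and neutral libraries, beside 0.0% of genes. Against mock libraries it was 3 members, or 8.82%, beside 21.8% of genes. DESeq2 called 4 members against aversive, 6 against neutral, 4 against mock, and 1 each in aversive against neutral and neutral against mock. These are 11.8%, 17.6%, 11.8%, 2.94% and 2.94% of members, beside 11.8%, 17.9%, 14.2%, 10.0% and 4.72% of the 33881 genes it fitted (3996, 6067, 4813, 3403 and 1598 genes). Without a filter 3 members were called against aversive, 4 against neutral and 3 against mock. These are 8.82%, 11.8% and 8.82% of members, beside 3.6%, 7.19% and 3.19% of genes. In aversive against neutral and in neutral against mock it was 1 each, or 2.94%, beside 2.45% and 1.47% of genes. Leaving out a library gave 0 to 7 members against aversive, 0 to 8 against neutral and 0 to 7 against mock, and 0 in the other comparisons. Where 0 members were called in these fits, the share of all genes was 0.0% to 0.446% against aversive and 0.0% against mock libraries. Against neutral libraries 0 members were called only when neutral 3 was left out, beside 0.358% of all genes. The highest counts came from the fit without appetitive 2, which left 1 appetitive library. That fit is given above with its shares of all genes. The cause of the changes in these counts was not tested. Replicate numbers did not pair the libraries, as deviations of same-numbered libraries correlated between -0.0371 and 0.164, so a call lost with the block is not read as a weaker effect. Naglu and Man2b1 kept their direction in all 16 alternatives of each appetitive comparison, with adjusted p from 7.42e-08 to 0.711 for Naglu and 6.55e-08 to 0.711 for Man2b1 against aversive libraries. Ctss was called without a filter and by DESeq2 in each of its 3 comparisons with neutral libraries. Of the 2 members near 0 in the appetitive libraries only, 1 was left at a limit of 0.5 CPM or with size factors of DESeq2.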
